A study of Arabidopsis thaliana with 13 samples.

Results

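Alpha-tubulin is 1 of the 2 subunits of the tubulin dimer, the building block of microtubules. The Arabidopsis genes TUA1 (AT1G64740), TUA2 (AT1G50010), TUA3 (AT5G19770), TUA5 (AT5G19780) and TUA6 (AT4G14960) are described here, 5 of the 3689 genes that had a feature of their own on the array. The members were selected by the annotation of the features, with their ratios on all 13 arrays known. Those ratios are therefore a description without a test. The 5 genes had 7 features, 2 each for TUA1 and TUA3 and 1 each for TUA2, TUA5 and TUA6. A further feature was annotated to TUA3 and TUA5 together and was kept apart. TUA4, another alpha-tubulin gene, had no feature named for it and was not analysed here.

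The study asked which Arabidopsis transcripts change over the day, with spotted cDNA arrays of 2 colours on which RNA of a later time met RNA of an earlier time. There were 2 arrays of 6 h against 0 h, 5 of 12 h against 0 h, 2 of 18 h against 0 h and 1 of 24 h against 0 h. A single array each compared 36 h with 24 h without a stated light condition, 36 h with 24 h with both times marked dark, and 60 h with 48 h. For the last of these the plants had been raised under 12 h of light and 12 h of dark, and then spent 24 h (the 48 h harvest) and 36 h (the 60 h harvest) under constant light. The labels name neither a tissue nor an ecotype or age, no genotype or agent is stated for any array, and light schedules are not stated for the other arrays.

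Alpha-tubulin and beta-tubulin bind each other as a dimer that carries GTP, and dimers join end to end into the wall of the microtubule. In growing plant cells the microtubules beneath the plasma membrane guide the complexes that lay down cellulose, so that they bear on the direction of growth, and in dividing cells microtubules build the preprophase band, the spindle and the phragmoplast. The alpha-tubulins of Arabidopsis are nearly alike: TUA3 and TUA5 encode the same protein, as do TUA2 and TUA4. TUA1 is known for its expression in pollen, while the other members are expressed widely in the plant. TUA3 and TUA5 are also adjacent genes on the chromosome. A spotted cDNA can bind transcripts of several such genes, so the values of single members are uncertain, above all those of TUA3 and TUA5.

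Each value below is a log2 ratio of the later over the earlier time after subtraction of the array's median, so 1 stands for a 2-fold higher level at the later time and 0 for the median feature. Channel 2 was taken as the numerator, a direction that no label states and that is only likely, and the opposite reading would turn every sign. The basis is the dark array, where the ratios of MCCA, IVD and MCCB, genes of leucine breakdown known to be induced in the dark, were 3.53, 3.06 and 2.68. On the other 36 h array, whose light is not stated, the same genes had 3.16, 3.02 and 2.77, so their high ratios were not particular to the array labelled dark, and the basis is weaker for it. Per array 12446 to 12795 of 12800 features had a value, and all 5 members had one on every array. The SD over all features was 0.382 on array 1 of 12 h and 0.626 to 0.858 on the other arrays. All comparisons with 0 h share that time, so that they are not independent of each other.

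At 12 h the alpha-tubulin transcripts stood above their 0 h level on most arrays, and between 24 and 36 h they stood below. TUA6 gave the clearest pattern, with a mean of 1.01 ± 0.47 at 12 h against 0 h (SD, n = 5 arrays), and -1.22 and -1.18 on the arrays of 36 h against 24 h without and with the dark label. Over the 5 members, the median ratio lay between 0.24 and 1.11 on the 5 arrays of 12 h. It was -0.61 at 36 h against 24 h, -0.55 for the dark pair and -0.38 at 60 h against 48 h. TUA5 was the exception, since its 12 h ratios averaged 2.43 on the 2 arrays with 12 h in channel 1 and -0.34 on the 3 with 12 h in channel 2. The plot of ratios by array shows each member on each array.

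**Figure D1:**
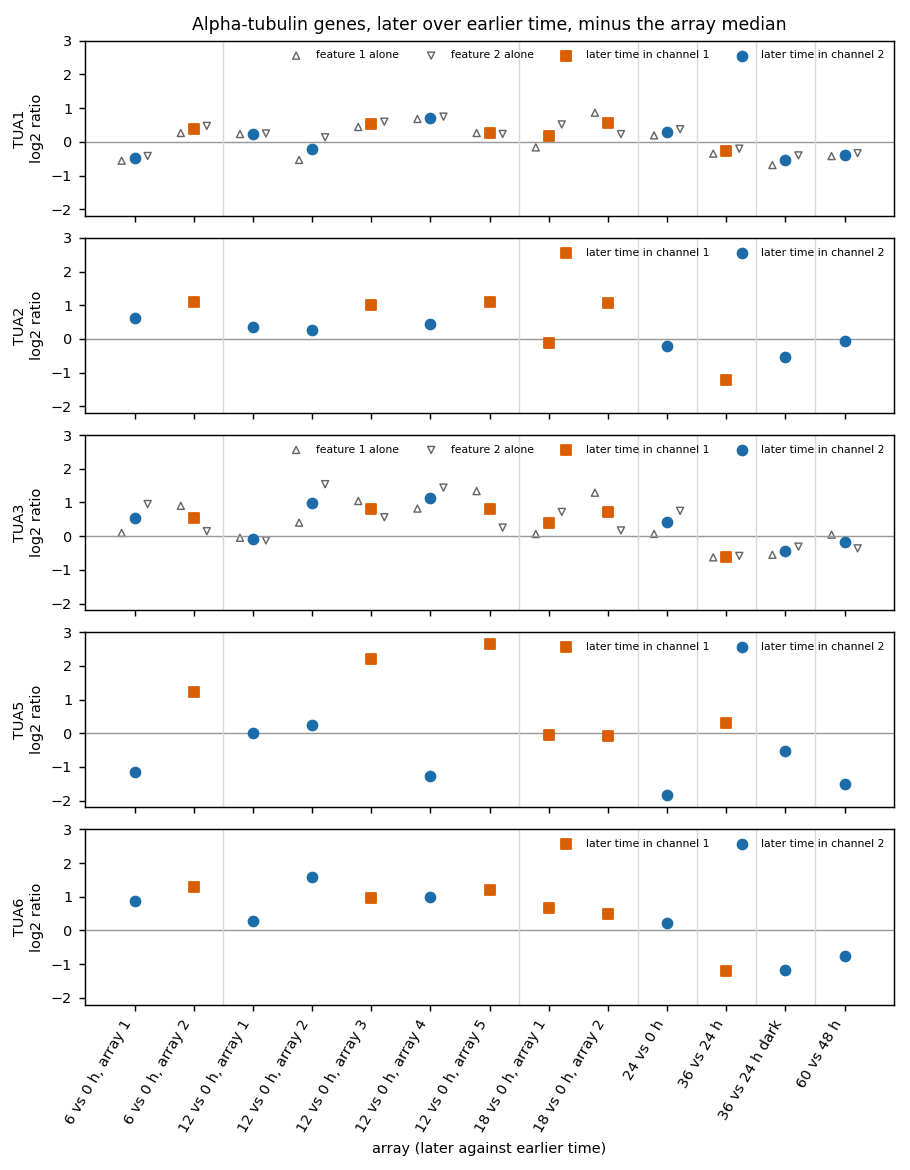
Log2 ratio of the later over the earlier time, minus the array median, for each alpha-tubulin gene (rows) on the 13 arrays (columns). Filled squares are arrays with the later time in channel 1, filled circles arrays with it in channel 2, and open triangles the separate features of TUA1 and TUA3. TUA6 lies above 0 on all 10 arrays against 0 h and below 0 on the other 3. TUA5 at 6 and 12 h has its highest values, from 1.24 to 2.65, on arrays with the later time in channel 1, while the arrays of 18 h, of the same channel order, lie near 0.

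TUA6, whose protein is widely used in fusions to mark plant microtubules and in which a mutation gives left-handed twisting growth, had ratios of 0.88 and 1.29 on arrays 1 and 2 of 6 h. On arrays 1 to 5 of 12 h it had 0.29, 1.57, 0.97, 0.998 and 1.20. At 18 h the ratios were 0.66 and 0.49, and at 24 h 0.21. All of these lie above 0, and the lowest are the 24 h array and the narrow array 1 of 12 h. At 36 h against 24 h the ratios were -1.22 and, in the dark, -1.18, on arrays of opposite channel order. At 60 h against 48 h the ratio was -0.77. The 3 ratios of the later days lie below every ratio against 0 h. In rank among all targets of an array, a target being a gene or an unnamed feature, TUA6 was between the 72.0 and the 97.9 percentile on the arrays against 0 h, and between the 5.6 and the 6.5 percentile on the arrays of 36 h and 60 h.

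TUA2, which encodes the same protein as TUA4, had ratios of 0.63 and 1.09 on the arrays of 6 h. On arrays 1 to 5 of 12 h the ratios were 0.35, 0.28, 0.998, 0.43 and 1.11, a mean of 0.63 ± 0.39 (SD, n = 5). The arrays of 18 h disagreed, at -0.11 and 1.07, and the 24 h array stood at -0.21. TUA2 was thus above 0 on every array of 6 and 12 h, with the higher values on arrays that had the later time in channel 1. On the later days TUA2 had -1.21 at 36 h against 24 h, -0.55 for the dark pair and -0.06 at 60 h against 48 h. All 3 lie below 0, the last of them by less than the SD between the 12 h replicates.

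TUA3 had averaged ratios of 0.52 on both arrays of 6 h. On arrays 1 to 5 of 12 h it had -0.09, 0.97, 0.80, 1.13 and 0.80, a mean of 0.72 ± 0.47 (SD, n = 5), with array 1 apart from the other 4. At 18 h it had 0.39 and 0.73, and at 24 h 0.41. On the arrays of 36 h, 36 h dark and 60 h it had -0.61, -0.43 and -0.16, so that the later days were again on the other side of 0. The 2 features behind these averages had the same sign on 12 of 13 arrays but differed by 0.656 in the median, and by up to 1.142 on array 2 of 12 h. Feature 1 had -0.05, 0.40, 1.04, 0.82 and 1.34 on the arrays of 12 h. Feature 2 had -0.13, 1.54, 0.56, 1.44 and 0.25. Feature 2 was therefore higher than feature 1 on arrays 2 and 4, with 12 h in channel 2, and lower on arrays 3 and 5, with 12 h in channel 1.

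The feature annotated to TUA3 and TUA5 together resembled feature 2 of TUA3 rather than the feature of TUA5. On arrays 1 to 5 of 12 h it had 0.28, 1.003, 0.77, 1.48 and 0.13, and on the arrays of 36 h, 36 h dark and 60 h -1.02, -0.56 and 0.42. Pearson's r over the 13 arrays was 0.82 with feature 2 of TUA3, 0.549 with feature 1 of TUA3 and -0.20 with the feature of TUA5. These arrays share RNA of 0 h and fall in both channel orders, so the correlations only describe them.

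TUA1, the member known for pollen, had the narrowest range of ratios. They were -0.49 and 0.37 at 6 h and 0.24, -0.20, 0.52, 0.71 and 0.25 on arrays 1 to 5 of 12 h, a mean of 0.30 ± 0.35 (SD, n = 5). At 18 h they were 0.18 and 0.55 and at 24 h 0.28. TUA1 lay above 0 on 4 of the 5 arrays of 12 h, but its mean there was smaller than its SD. On the arrays of 36 h, 36 h dark and 60 h it had -0.28, -0.55 and -0.38. Its 2 features differed by 0.158 in the median over the arrays, less than the 0.656 of TUA3. They had the same sign on 11 of 13 arrays, beside 12 of 13 for TUA3.

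TUA5 had the widest spread, with a range of 4.48 over the 13 arrays against 1.26 to 2.79 for the other members. Its ratios on the arrays of 6 h were -1.16 and 1.24. On arrays 1 to 5 of 12 h they were 0.01, 0.24, 2.21, -1.28 and 2.65, a mean of 0.77 ± 1.63 (SD, n = 5). The replicates of 12 h thus lie on both sides of 0, and the 2 arrays with 12 h in channel 1 averaged 2.43 while the 3 with 12 h in channel 2 averaged -0.34. For TUA6 these averages were 1.08 and 0.95, for TUA3 0.80 and 0.67, for TUA1 0.38 and 0.25, and for TUA2 1.05 and 0.35. At 18 h TUA5 had -0.06 and -0.07, and at 24 h -1.83. On the arrays of 36 h, 36 h dark and 60 h it had 0.30, -0.53 and -1.50.

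Read as deposited, without turning the arrays to later over earlier, the TUA5 ratio was below -0.25 on 9 of 13 arrays, whichever time was in channel 2. On the other 4 arrays it lay between 0.01 and 0.24. The same ratio of TUA6 lay above 0 on 6 arrays and below 0 on 7, all 7 below -0.25, following the times and not the channel. TUA1 lay below 0 on 9 arrays as well, and below -0.25 on 6. The count of signs alone therefore does not set TUA5 apart. The dye term of the linear model, which is the part of a ratio tied to the channel and not to the time, was -1.33 ± 0.19 (SE) for TUA5, larger in size than that of 99.9% of targets. It was between -0.32 and -0.05 for the other members, beside a median size of 0.186 over all targets. The term of TUA3 is that of the mean of its 2 features. Their difference turned with the channel order on arrays 2 to 5 of 12 h, so a small term does not mean that each feature was free of it.

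**Figure D2:**
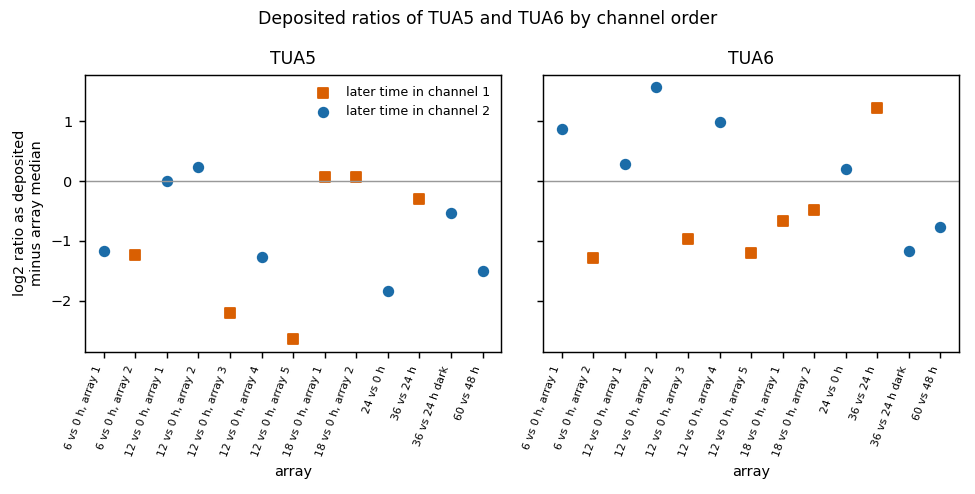
Log2 ratio as deposited (read as channel 2 over channel 1) minus the array median for TUA5 and TUA6 on the 13 arrays, with squares for arrays that had the later time in channel 1 and circles for those that had it in channel 2. TUA5 lies at or below 0.24 in both kinds of array, whereas TUA6 at 6 and 12 h is above 0 where the later time was in channel 2 and below 0 where it was in channel 1.

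The linear model fitted to all 13 arrays, with 1 coefficient per pair of times and the dye term, gave the change of each member as follows (± SE of the coefficient). At 12 h against 0 h TUA5 stood at 1.03 ± 0.22, TUA6 at 1.03 ± 0.19, TUA3 at 0.73 ± 0.19, TUA2 at 0.69 ± 0.18 and TUA1 at 0.34 ± 0.18. In linear terms these are 2.05, 2.04, 1.66, 1.62 and 1.26-fold. In this order TUA5 and TUA6 lay within their SEs of each other, as did TUA3 and TUA2, while the gaps from TUA6 to TUA3 and from TUA2 to TUA1 were larger than either SE but smaller than both together. The value for TUA5 averages arrays of opposite sign, and without the dye term it was 0.77 ± 0.53. Within the software used to read the arrays, the 3 arrays of ScanAlyze 2.33 averaged 1.06 for TUA6 and 0.85 for TUA2, and the 2 arrays of version 2.44 averaged 0.93 and 0.31. For TUA3 the averages were 0.91 and 0.44, for TUA5 1.19 and 0.12, and for TUA1 0.49 and 0.02. Both arrays of version 2.44 had 12 h in channel 2, and 1 of them is the narrow array 1. Arrays 3 and 5 of version 2.33 had 12 h in channel 1. The averages by software therefore also carry the channel order, and the 2 were not separated.

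Of the members, 2 of 5 (TUA5 and TUA6) passed a Benjamini-Hochberg adjusted p under 0.05 over all targets with limma at 12 h, where 4.11% of 11290 targets passed, and nothing is read from this count because the members were chosen with these values known. The median over the members was 0.73, beside -0.01 over all targets. Above 0 on all 5 arrays of 12 h were TUA2 and TUA6, as were 7.71% of all targets, while 5.22% were below 0 on all 5, the share that would apply if the signs were turned. Leaving out array 2, 3, 4 or 5 of 12 h left no target called, members included. Without array 1 the members called were TUA3, TUA5 and TUA6, among 1063 targets called, against 464 targets with all arrays.

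At 6 h the coefficients were 1.09 ± 0.30 for TUA6, 0.86 ± 0.28 for TUA2 and 0.52 ± 0.30 for TUA3, with TUA5 at 0.04 ± 0.34 and TUA1 at -0.06 ± 0.28 (n = 2 arrays). TUA6 and TUA2 were thus already near or above their 12 h values at 6 h. The title and the channels of array 2 order its times differently, and with that array turned the values at 6 h were -0.14 for TUA6 and 0.12 for TUA2. For TUA1 the 2 arrays pointed opposite ways, with 0.30 when array 1 was left out and -0.42 when array 2 was. At 18 h TUA3 stood at 0.51 ± 0.34, TUA6 at 0.47 ± 0.34, TUA1 at 0.19 ± 0.32 and TUA2 at 0.17 ± 0.32. Leaving out array 1 of 18 h gave 0.76 for TUA2, and leaving out array 2 gave -0.42. TUA5 stood at -1.40 ± 0.39, although both of its measured ratios there were near 0; both 18 h arrays had the later time in channel 1, so the coefficient is set by the dye term. At 24 h against 0 h the coefficients ran from -0.50 ± 0.52 for TUA5 to 0.46 ± 0.42 for TUA1 (1 array). None of the members was called at 6, 18 or 24 h, where 0.00886%, 0% and 0.0177% of targets were.

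On the later days the dye-corrected changes from 24 to 36 h were -1.52 ± 0.42 for TUA2, -1.33 ± 0.45 for TUA6, -1.03 ± 0.52 for TUA5, -0.65 ± 0.45 for TUA3 and -0.45 ± 0.42 for TUA1. In linear terms TUA2 was 2.87-fold and TUA6 2.51-fold lower at 36 h. All 5 lie below 0, and the sign for TUA5 came from the dye term, since its measured ratio was 0.30. For the dark pair TUA6 stood at -1.07 ± 0.45 and TUA3, TUA1 and TUA2 between -0.39 and -0.23, while TUA5 stood at 0.80 ± 0.52. At 60 h against 48 h TUA6 stood at -0.66 ± 0.45 and the others between -0.21 and 0.26. No member was called on these single arrays, where 1.54%, 2.16% and 0.585% of targets were. Before dye correction, 4 of 5 members (all but TUA5) were below 0 on all 3 arrays, as were 16.0% of all targets, while 16.7% were above 0 on all 3. After dye correction TUA2 lay above 0 at 60 h, at 0.26 ± 0.42.

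**Figure D3:**
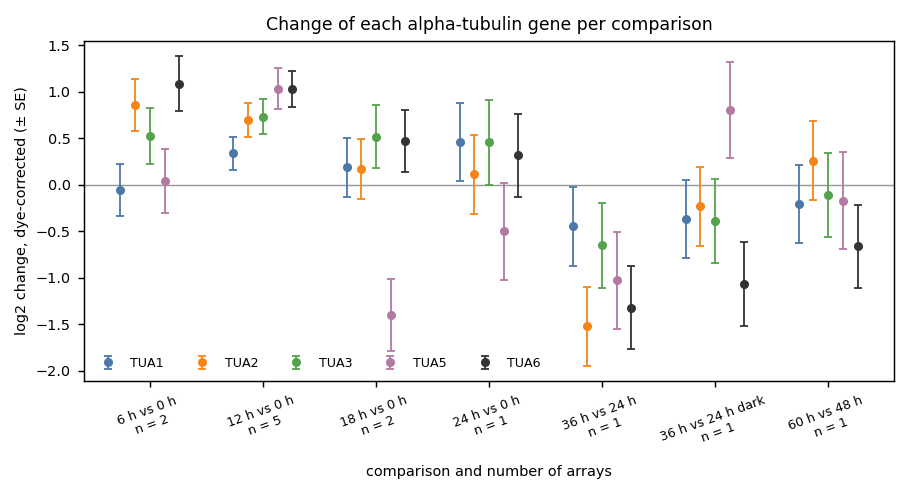
Dye-corrected log2 change of each alpha-tubulin gene per comparison, with the SE of the coefficient as error bars and the number of arrays under each comparison. At 12 h all 5 genes lie above 0, and at 36 h against 24 h all 5 lie below 0. TUA5 stands apart at 18 h and for the dark pair.

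The difference between the days was widest for TUA6, although at 36 h against 24 h TUA2 and TUA5 lay within its SE. The value of TUA5 there rests largely on the dye term. Its measured ratio was 0.30 at 36 h against 24 h, beside a mean of 0.77 at 12 h. The change from 24 to 36 h minus the change from 0 to 12 h was -2.35 ± 0.50 for TUA6, -2.22 ± 0.47 for TUA2, -2.06 ± 0.58 for TUA5, -1.38 ± 0.50 for TUA3 and -0.79 ± 0.47 for TUA1. For the dark pair it was -2.10 ± 0.48 for TUA6, -1.12 ± 0.48 for TUA3, -0.93 ± 0.45 for TUA2, -0.71 ± 0.45 for TUA1 and -0.23 ± 0.55 for TUA5. For 60 h against 48 h it was -1.69 ± 0.48 for TUA6, -1.20 ± 0.55 for TUA5, -0.85 ± 0.48 for TUA3, -0.54 ± 0.45 for TUA1 and -0.44 ± 0.45 for TUA2. The SEs rest on a spread shared by all arrays, since each later pair of times has 1 array. The array with constant light before harvest and the dark array gave TUA6 the same sign, opposite to that of 12 h against 0 h.

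The root marker on the list had ratios below 0 at 36 h, although neither change was called. PYK10, a beta-glucosidase of root ER bodies and the 1 measured gene of 4 root and flower markers, had ratios of -0.86 and, in the dark, -1.05 at 36 h against 24 h, with coefficients of -0.84 ± 0.45 (adjusted p = 0.358) and -1.06 ± 0.45 (adjusted p = 0.257). At 12 h its coefficient was -0.06 ± 0.19, at 6 h 0.61 ± 0.30 and at 18 h 0.63 ± 0.34. PYK10 stood at -0.47 ± 0.45 at 24 h and at -0.15 ± 0.45 at 60 h against 48 h. Its part in the values of the members was not tested. In whole tissue, fewer cells of a type and less RNA per cell cannot be told apart.

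Beta-tubulins, the partners of alpha-tubulin in the dimer, also stood above their 0 h level at 12 h. Of 12 other tubulin genes listed, TUB5, TUB6 and TUB9 had a feature, and these were not used to choose the members. The list was still set with earlier results of these data known, so their tests are not independent of those results. TUB6 had ratios of 0.17, 1.54, 0.57, 0.95 and 1.61 on arrays 1 to 5 of 12 h above 0 on 5 of 5, and rose by 0.98 ± 0.23 (1.97-fold, limma adjusted p = 0.049). This call was kept in 4 of 19 alternatives, with adjusted p-values from 0.0135 to 1. TUB9, known mainly from pollen, had 0.20, 1.96, 0.79, 0.74 and 1.04, and its change of 0.95 ± 0.23 did not pass (adjusted p = 0.0543). TUB5 had 0.09, 1.49, 0.76, 1.45 and 0.03, and its change of 0.71 ± 0.22 did not pass either (adjusted p = 0.114). All 3 were thus above 0 on every array of 12 h, beside 7.71% of all targets, and 1 of 3 was called, beside 4.11%.

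From 24 to 36 h the beta-tubulins stood nearer to 0 than TUA2 and TUA6, a contrast that was not tested. Their ratios were -0.22 for TUB5, -0.15 for TUB6 and -0.30 for TUB9, and on the dark array -0.01, -0.59 and 0.09. The difference between the change from 24 to 36 h and that from 0 to 12 h was -1.30 ± 0.61 for TUB9 (adjusted p = 0.311), -1.19 ± 0.61 for TUB6 (adjusted p = 0.346) and -0.64 ± 0.59 for TUB5 (adjusted p = 0.618), so none of the 3 passed. For the dark pair the adjusted p-values of the difference were 0.511, 0.213 and 0.395 in the same order of genes, and for 60 h they were 0.794, 0.867 and 0.978.

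**Figure D4:**
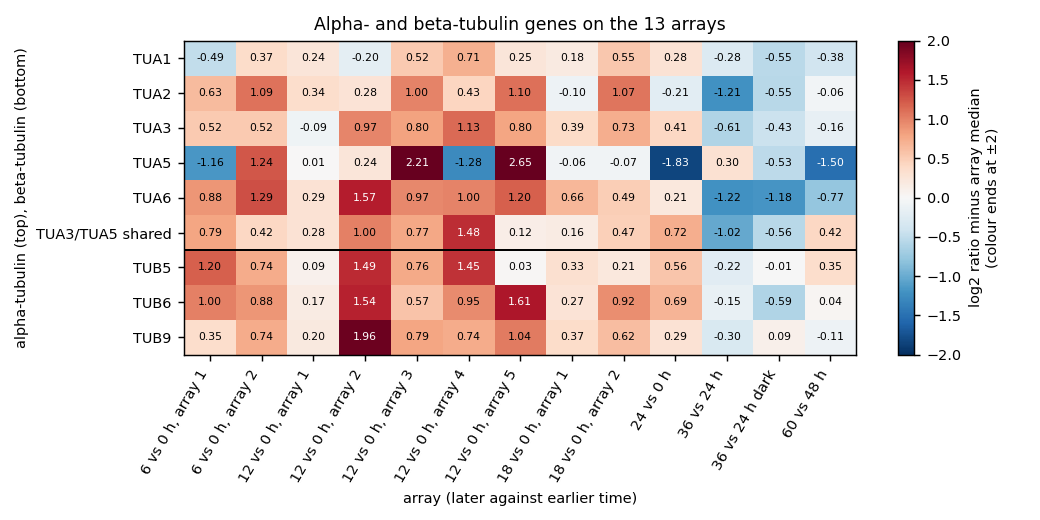
Log2 ratio of the later over the earlier time, minus the array median, for the alpha-tubulin genes, the feature annotated to TUA3 and TUA5 together and, under the line, 3 beta-tubulin genes on the 13 arrays. Red is higher and blue lower at the later time, with the colour scale ending at ±2. Apart from TUA5, the cells against 0 h below 0 are TUA1 on array 1 of 6 h and array 2 of 12 h, TUA2 on array 1 of 18 h and at 24 h, and TUA3 on array 1 of 12 h.

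Other measured genes of microtubules and of the cell wall did not pass the test at 12 h. Of 5 tubulin-folding cofactors 1 was measured, PORCINO (POR, cofactor C), with a coefficient of -0.01 ± 0.15 at 12 h (adjusted p = 0.978). Of 19 microtubule-associated proteins and kinesins 1 was measured, SPIRAL1 (SPR1), a microtubule plus-end protein needed for straight growth, at 0.38 ± 0.16 (adjusted p = 0.219). A search of gene synonyms for tubulin, kinesin or microtubule added KINESIN-13A, a motor of the kinesin family, at 0.29 ± 0.16 (adjusted p = 0.324). COBRA (COB), a membrane-anchored protein required for oriented cell expansion and the 1 measured gene of 12 for cellulose synthesis, stood at 0.39 ± 0.19 (adjusted p = 0.284). None of the 17 actin cytoskeleton or 9 cell division genes listed had a feature of its own. Of these 7 measured genes outside the members, TUB6 alone was called at 12 h, and their median was 0.39, beside -0.01 over all targets. None was called by limma in any other comparison, where the number at an unadjusted p under 0.05 was 2 at 6 h, beside 1688 of 11290 targets, and 0 otherwise.

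Of 3628 other named genes with a value on all arrays, the 5 whose ratios correlated best with the mean of the members were AT3G28940 (Pearson's r = 0.921 over 13 arrays), AT5G48500 (0.912), CHL (0.910), AT1G67680 (0.904) and AT2G47390 (0.904). CHL, the lipocalin gene of the chloroplast, had ratios of 0.24, 1.65, 2.39, 1.86 and 2.41 on arrays 1 to 5 of 12 h, and -0.08, -0.55 and -0.71 at 36 h, 36 h dark and 60 h. TUB6 ranked 75 with an r of 0.758, TUB9 ranked 111 with 0.728 and TUB5 ranked 945 with 0.328. Because TUA5 had a large dye term, the mean carries it too. Without TUA5 the highest values were 0.938 for scpl35, 0.923 for AT5G10560 and 0.921 for AT5G27120, and AT2G47390 alone of the first 5 genes was among the 5 highest. TUB6 then ranked 38 with an r of 0.837.

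Among the members themselves, with features averaged, TUA3 and TUA6 had the closest profiles (Pearson's r = 0.906 over 13 arrays). TUA2 followed, with TUA6 (0.787) and with TUA3 (0.749). The order depends on the averaging. Features 1 and 2 of TUA3 alone had 0.738 and 0.755 with TUA6, 0.903 and 0.340 with TUA2, and 0.357 with each other. TUA1 had an r of 0.539 to 0.626 with TUA2, TUA3 and TUA6. TUA5 had 0.233 with TUA3, the gene that encodes the same protein, and 0.475 at most. The arrays share RNA of 0 h and 2 channel orders, which the correlations carry along.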

How the data were processed

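For each feature the authors deposited a log2 ratio per array, made from 2-colour arrays read with ScanAlyze 2.33, 2.42 or 2.44, per the labels. How they corrected background and normalised, and the direction of the ratio, are not given in the sources used here. That the base is 2 was read from the deposited values, in which the log2 of 1/2 occurs 159 times, against a mean of 20.4 at the 20 neighbouring steps. The platform annotation gave 5197 of 12800 features a single gene, 214 several and 7389 none. Current symbols came from the TAIR10.1 table of genes, matched for 5190 of these.

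Ratios were centred on the array median, turned to later over earlier by the channel labels (for 1 array of 6 h against its title) and averaged over the features of a gene. Targets with values on at least 10 of 13 arrays, 11290 in all, were fitted with limma 3.58.1 in R 4.3.3, with 1 coefficient per pair of times and a dye term. All comparisons share 1 spread per target, to which pairs of times with 1 array add nothing. Benjamini-Hochberg adjustment ran over all targets. The fit was tested on simulated data. Nothing says that arrays came from separate plants, except the word biological on 3, so p-values measure the spread between arrays, and the number of arrays limits the precision.

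The members and the gene lists were chosen with earlier results of these data known. The text names the members, the measured genes of 7 lists on tubulins, folding cofactors, microtubule-associated proteins, actin, cellulose synthesis, cell division and tissue markers, genes found by a synonym search, and the 5 genes with the highest r. Alternatives varied the dye term, centring, scale, averaging, filter, array turn, software and arrays left out.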

Additional observations from a re-analysis of the deposited data

Results flagged for a closer look

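TUA3 on array 1 of 12 h against 0 h, at -0.088, lay far below the other 4 arrays of that comparison: the gap to the next value was 0.726 of the whole range, above the limit of 0.71 for 5 samples. The ratios of 12 h were looked at in this way for 18 genes and features, of which 1 stood out, and chance alone gives about 1 in 20. Array 1 is also the array with an SD of 0.382 over all features, and the only one with the word single in its title.

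TUA6 and TUA2 were above 0 on all 5 arrays of 12 h against 0 h and below 0 on each array of a later day, a difference in direction of the measured ratios that was not tested. TUA6 stood at -1.218 at 36 h against 24 h, at -1.175 for the dark pair and at -0.769 at 60 h against 48 h. TUA2 stood at -1.207, -0.549 and -0.057 on the same arrays. After dye correction TUA2 was at -1.52, -0.23 and 0.26, so that its sign at 60 h turned while TUA6 stayed below 0 on all 3. With a separate dye term for ScanAlyze 2.33, TUA2 was at -0.02 at 60 h.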

How the results depend on the processing

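Over the alternatives, 680 of 700 values of single members kept the sign of the reported value and 692 moved by less than the SD between the arrays of 12 h. For TUA5 that SD was 1.63, so even its shift from -1.03 to 0.30 at 36 h against 24 h without the dye term counts as within it. Leaving out an array changes the values of other comparisons only through the shared dye term, so part of this agreement was built in. At 12 h the median over the members stayed between 0.54 and 0.92, and all 5 members stayed above 0 in every alternative. With array 2 of 6 h turned as its title lists the times, the median at 6 h was 0.064 and TUA6 stood at -0.14. Without the dye term, and as the plain ratio, the median at 36 h against 24 h was -0.609, and TUA5 turned to 0.30 there. Taking the median without TUA5, added after seeing the data, moved no median by more than the SD of 0.394. The calls were less stable. Targets called at 12 h were 464, against 1 without the dye term, 109 with a separate dye term for ScanAlyze 2.33, 202 with arrays scaled to 1 spread, 0 with array 2 of 6 h turned, 0 with the 12 h arrays of version 2.44 alone, and 0 to 1063 without 1 array. Genes called at 12 h from the lists on the cytoskeleton and cell wall were 1 (TUB6), against 2 with values on all 13 arrays, 0 to 3 without 1 array, and 0 without the dye term, with a separate one, without centring, with arrays scaled to 1 spread, with array 2 of 6 h turned, or with the 12 h arrays of either software alone. TUA6 was called in 11 of 19 alternatives and TUA5 in 7. Nothing is read from these 2 counts, because the members were chosen with these values known. Over the alternatives 0 to 272 targets were called at 6 h, 0 to 156 at 18 h, 0 to 21 at 24 h, 0 to 221 at 36 h, 0 to 358 for the dark pair and 8 to 188 at 60 h. The causes were not tested. No paired analysis was possible because the labels give the arrays no shared replicate numbers.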
